A study of Mus musculus with 2 samples.

Results

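The genes described here encode enzymes and carriers that remove oxidants, make and use glutathione, run the thioredoxin cycle, break down heme and store iron. They were listed by name, as 49 mouse genes, with earlier results of these data known. They were found on the arrays as the non-control probes whose transcript accession belongs to them in RefSeq. All 49 had a probe, 66 probes in all, out of 18430 named genes and 41164 probes with a usable value on both arrays. RNA came from 1 sample of Menin WT and 1 of Menin KO CD4 T cells from the spleen of female C57BL/6J mice, each hybridised to 1 one-colour Agilent array. Naive (CD62L+) cells of either genotype were activated in culture with antibodies to TCR-beta and CD28 in the presence of IL-2 for 2 days, and IL-2 alone followed for 3 more days. Both samples therefore share this activation and culture, and the labels name no added oxidant. The age and number of the mice, and how or in which cells Men1 was deleted, were not given in the sources used here.

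Glutathione is a small thiol peptide that reduces peroxides and is attached to reactive compounds by glutathione transferases, while thioredoxin reduces protein disulfides and, through peroxiredoxins, peroxides. Both systems draw their electrons from NADPH. Many of their genes are induced by NRF2, the product of Nfe2l2, which pairs with small Maf proteins at antioxidant response elements and is held down by KEAP1. BACH1 occupies such elements as a repressor and leaves them when heme binds it, and BACH2 is its relative in lymphocytes. Activated T cells need glutathione to grow and divide.

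Each group had 1 array, so no test was run, and the differences carry neither a p-value nor a biological error. Values are processed signals in arbitrary units for WT and then KO, followed by the fold or the log2 difference of KO minus WT after each array was scaled to its 75th percentile of signal (644 and 650). The only measured error is the scatter between spots of 1 probe. For a difference of single spots it had an SD of 0.0806 on the log2 scale at signals of 100 or more and of 0.339 below 100, and it leaves out mice, cultures and labelling. A difference of at least 2-fold is called higher or lower. A gene read well above background on 1 array only has a bound, written as at least N-fold, and one read so on neither array has no difference. Dim is used of low signals.

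Most of these genes were close to equal on the arrays, and a small group with several glutathione transferases was higher in KO. Of the 49, 46 passed the filter on dim probes, being well above background on 1 array or both, and 44 did so on both. In KO 9 were at least 2-fold higher, 1 was at least 2-fold lower, 34 lay between and 2 had bounds under 2-fold. Among all 13786 named genes that passed the same filter 10.6% were at least 2-fold higher and 5.03% at least 2-fold lower. The members' shares were 19.6% and 2.17%. Because the list was chosen with earlier results of these data known, its shares describe the list and do not test it. The split of all genes, 1458 higher and 694 lower, was 601 and 1682 after normexp, another background correction, applied as given, and 760 and 369 after normexp with aberrant local backgrounds replaced. The members' median log2 difference was 0.21 against -0.0053 for all named genes. The 9 and the 1 were all measured on both arrays, where 8.86% of genes were higher and 4.51% lower. Of the 44 members there, 34 had a difference above 0 and 10 below it. Differences of at least 2-fold were rarer among bright probes, so the shares were also set out by signal, a split made after the values were seen. Above the 75th percentile of mean signal 3 of 27 members were higher and 1 lower, against 3.37% and 2.61% of genes there. In the dimmer range 6 of 19 were higher, against 13.0%. The 9 higher genes were Gstm5, Me1, Gstm1, Srxn1, Hmox1, Glrx, Mgst3, Gsto1 and Ftl1, and the lower gene was Mgst2.

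**Figure D1:**
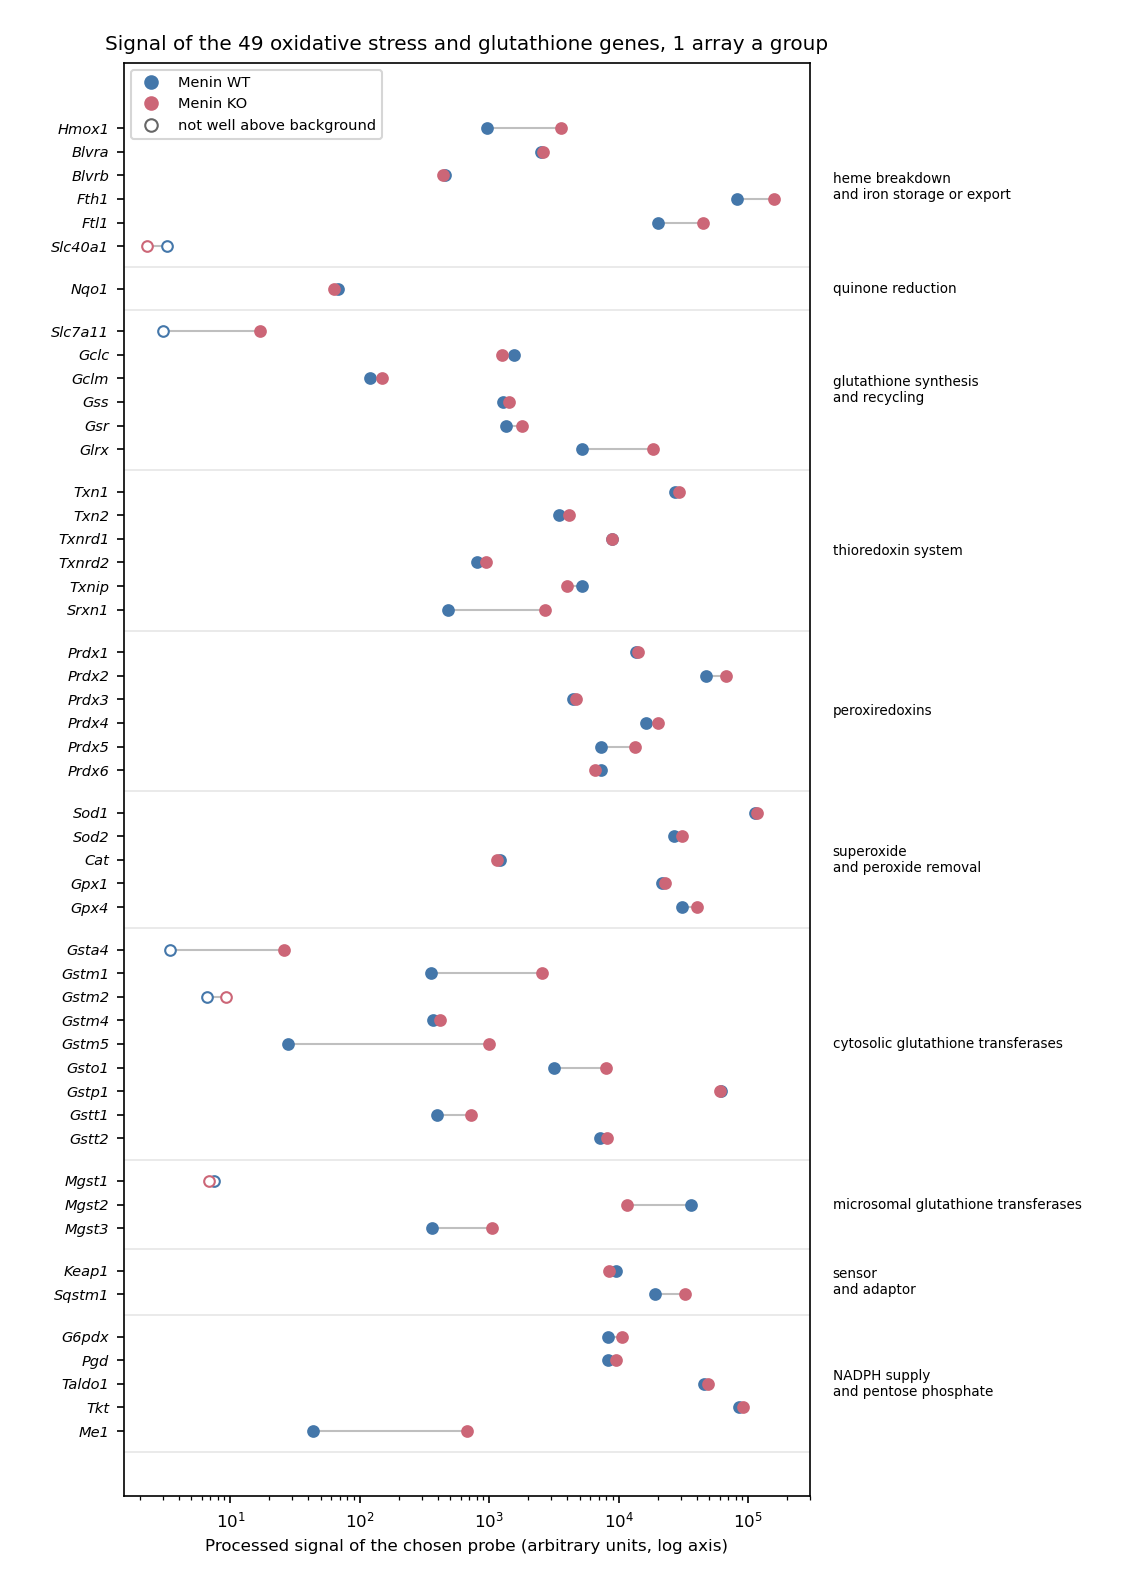
Processed signal (log axis, arbitrary units) of the chosen probe of each of the 49 genes on the Menin WT array and the Menin KO array, grouped by role, with open points where the probe was not well above background. The pairs of points lie close together for most genes and far apart for Gstm5 (28.0 and 999) and Me1 (43.3 and 669), and Mgst2 alone lies at least 2-fold to the left in KO.

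The promoters of several of these genes hold letters that AP-1, NRF2 and BACH factors can bind, and stretches are shown for the 7 members whose window holds the AP-1 form. The windows run from 250 bases before to 50 after the start of transcription in RefSeq on GRCm38.p6, and 42 of the 49 genes had one. Capitals mark TGANTCA. Its reverse complement is the same motif. The stretches are read on the gene's own strand with up to 30 bases on each side, less where the window or the start of transcription ends them. The first 4 genes were higher in KO, Mgst2 was lower, and Gstp1 and Prdx1 were between.
Gstm5 (chr3:107895648-107895714, plus strand): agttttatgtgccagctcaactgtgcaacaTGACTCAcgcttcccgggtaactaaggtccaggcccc
Me1 (chr9:86695914-86695950, minus strand): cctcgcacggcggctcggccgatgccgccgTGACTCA
Srxn1 (chr2:152105392-152105515, plus strand): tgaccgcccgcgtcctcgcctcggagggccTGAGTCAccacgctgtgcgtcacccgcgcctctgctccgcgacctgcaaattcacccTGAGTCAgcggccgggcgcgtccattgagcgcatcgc
Glrx (chr13:75839757-75839823, plus strand): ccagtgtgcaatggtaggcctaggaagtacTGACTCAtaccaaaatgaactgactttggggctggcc
Mgst2 (chr3:51661097-51661163, plus strand): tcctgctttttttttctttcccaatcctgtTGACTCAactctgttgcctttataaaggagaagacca
Gstp1 (chr19:4037950-4038016, minus strand): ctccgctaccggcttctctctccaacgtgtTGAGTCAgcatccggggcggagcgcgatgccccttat
Prdx1 (chr4:116685349-116685504, plus strand): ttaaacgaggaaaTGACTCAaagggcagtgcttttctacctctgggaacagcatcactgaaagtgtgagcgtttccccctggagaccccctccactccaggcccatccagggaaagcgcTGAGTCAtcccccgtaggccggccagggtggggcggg

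TGANTCA stood in the windows of 4 of the 8 higher members that had one (Gstm5, Me1, Srxn1 and Glrx) and of 2 of the 30 members between the limits (Gstp1 and Prdx1). It was found in 8.97% of all 27025 genes with a window and in 6.59% of the 11067 of them that passed the filter on the arrays. In Srxn1 it occurred at 2 places, starting 102 and 45 bases before the start. In Me1 it began 6 bases before the start, in Gstm5 176, in Glrx 98 and in Mgst2 52. The core of the antioxidant response element, searched as TGACNNNGC on both strands, was held by 11 of the 42 members (26.2%) against 14.0% of all genes and 16.7% of those measured. Here the split differed, with 3 of 8 higher members (Gstm5, Me1 and Srxn1) and 7 of 30 between, among them Gclm, Txnrd1, Prdx1 and G6pdx. The looser TGANNNNGC was in 21 of 42 members and in 45.0% of all genes. The motifs overlap: the AP-1 letters of Me1 and Gstp1, and those nearest the start in Srxn1 and Prdx1, lie within a match to TGANNNNGC on one of the strands, and those of Me1 and nearest the start in Prdx1 within a match to TGACNNNGC. A gene with more than 1 window was counted if any of them held the motif, and Me1, with 2 windows, held TGANTCA in 1 of them. The motifs were chosen with earlier results of these data known. These matches describe the letters of short windows and show no binding.

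Among 9 genes of factors that act on such elements, 2 were at least 2-fold lower in KO and 1 was higher. Nfe2l2 was at 4071 in WT and 1105 in KO, 3.72-fold lower, and its 2 probes gave -1.95 and -1.89. Bach2 was at 4643 and 604, 7.76-fold lower. Bach1, the repressor released by heme, was at 364 and 267 with a log2 difference of -0.46. So the mRNAs of an activator and of both BACH repressors were below 0 on the KO array, and those of Nfe2l2 and Bach2 by over 2-fold. Among the partners, the small Maf genes Mafg (0.56), Maff (0.27) and Mafk (0.13) and the NRF2 relatives Nfe2l1 (0.28) and Nfe2l3 (0.15) lay between the limits. Nfe2, a blood cell relative of Nfe2l2, was read in KO only, at least 3.86-fold higher from signals of 8.36 and 54.6. With aberrant backgrounds replaced its log2 bound was 0.43, under the limit, and neither normexp setting left a factor gene higher. These mRNA values give no protein level or nuclear activity. Keap1, which marks NRF2 for degradation, had 9597 in WT and 8418 in KO (-0.20), and Sqstm1, the autophagy adaptor p62 that binds KEAP1, 19178 and 32749 (0.76). Men1 itself was at 1081 and 459, 2.38-fold lower, on 1 probe whose place relative to the deletion is not known here.

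The heme and iron genes had a median log2 difference of 0.94 over 5 measured members, with 2 higher and 3 between. Hmox1, heme oxygenase 1, which opens the heme ring and frees its iron, read 961 in WT and 3592 in KO, 3.71-fold higher. Ftl1, the ferritin light chain, had 20199 and 44635, 2.19-fold higher. Fth1, the ferritin heavy chain that oxidises iron for storage, had 81630 and 157952, 1.92-fold higher and so just under the limit. The storage protein's subunit genes thus stood apart by nearly the same factor, Ftl1 just above 2-fold and Fth1 just below it. The enzymes after heme oxygenase did not follow it: Blvra, biliverdin reductase A, was at 2508 and 2599 (0.04) and Blvrb, biliverdin reductase B, at 453 and 439 (-0.06). Slc40a1, ferroportin, the iron exporter, was well above background on neither array. Ferritin genes have many processed copies in the genome, so their probes may also read other transcripts. Macrophages express Hmox1 strongly, and their markers are given with those of other cell types.

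Other genes of heme and iron, from a list of 28, were mostly level, and their median was -0.02. Of the 26 measured, 2 were higher, 1 was lower and 23 lay between. Abcb6, a porphyrin transporter, was 2.16-fold higher (667 and 1453), and Slc11a1, the NRAMP1 metal transporter, 2.29-fold higher (74.1 and 171, but 0.05 in log2 after normexp as given). Tfrc, the transferrin receptor that brings iron in, was 2.26-fold lower (8609 and 3836, with -0.93 in log2 after normexp as given). The ferritin genes lay above 0 and Tfrc below it. Iron regulatory proteins bind these mRNAs, and their part in these values was not tested. The regulator genes Aco1 (0.06) and Ireb2 (-0.24, although 1 of its 3 probes gave 0.57) lay between. Genes of heme synthesis were near 0, such as Alas1 (-0.13), Urod (-0.04) and Fech (-0.13), and Hmox2, the constitutive heme oxygenase, was at -0.39.

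Genes that make and recycle glutathione were nearly equal, with Glrx as the exception. Glutamate-cysteine ligase catalyses the limiting step: its catalytic subunit gene Gclc had 1562 in WT and 1256 in KO (-0.33) and its modifier Gclm 119 and 148 (0.31). Gss, glutathione synthetase, was at 1268 and 1419 (0.15). Gsr, which reduces oxidised glutathione with NADPH, had 1346 and 1774 (0.39), and its 3 probes lay between 0.37 and 0.40. So no enzyme of synthesis reached the limit, and Gclc and Gclm had opposite signs except after normexp as given, where Gclm was at -0.35 and Gclc at -0.13. Slc7a11, the cystine importer that supplies the cysteine, was not well above background in WT, and its brightest probe gave 16.9 in KO, at least 1.20-fold higher. A second of its 3 probes gave 14.6 in KO and the third was read on neither array. Glrx, glutaredoxin 1, which removes glutathione from protein thiols, had 5231 and 18470, 3.50-fold higher. The glutaredoxin genes outside the 49 did not share this, with Glrx2 at 0.25, Glrx3 at 0.38 and Glrx5 at 0.02.

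Of 20 other genes of glutathione handling all were measured and 1 was higher. This was Ggt1, the gamma-glutamyl transferase that starts glutathione breakdown outside the cell, with 91.6 and 306, 3.32-fold higher (0.60 in log2 after normexp as given). Abcc1, the exporter MRP1 of glutathione conjugates, had 2851 and 5220 (0.86, with its 3 probes between 0.86 and 0.91). Chac1, a glutathione-degrading enzyme of the stress response, had 1463 and 2899 (0.97). Slc3a2, the heavy chain that partners the cystine importer, was at 0.37, and Glo1, glyoxalase 1, which uses glutathione to detoxify methylglyoxal, at 0.73. The list median was 0.28.

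The thioredoxin system and the peroxiredoxins were level except for Srxn1. Txn1, cytosolic thioredoxin, had 27071 in WT and 29059 in KO (0.09), and Txn2, its mitochondrial form, 3476 and 4147 (0.24). Txnrd1, the reductase that NRF2 can induce, had 8793 and 8811 (-0.01), and mitochondrial Txnrd2 806 and 950 (0.22). Txnip, which binds thioredoxin and limits glucose uptake, had 5196 and 3990 (-0.39 on both of its probes). None of these 5 reached 2-fold. Srxn1, sulfiredoxin, which repairs overoxidised peroxiredoxins, had 479 and 2690, 5.57-fold higher. Its dimmer probes agreed, with 44.5 and 235 (2.39) and 33.2 and 212 (2.66). Srxn1 is the member read by 3 probes that all stood above 2-fold, and its difference was seen on each.

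All 6 peroxiredoxin genes lay between the limits, with a median of 0.18. Prdx5, an atypical enzyme of several compartments, had 7296 and 13265 (0.85), the largest of the 6. Prdx2, abundant in the cytosol, had 47024 and 67142 (0.50), and its other probes gave 0.37 and 0.39. The first of these probes was printed 10 times on each array: its spots ran from 44906 over a median of 47368 to 48459 in WT, and from 64721 over 67202 to 68483 in KO. The spots of the arrays did not overlap, and their SD on the log2 scale was 0.035 in WT and 0.022 in KO (10 spots of 1 array each, so technical). Prdx4, of the endoplasmic reticulum, was at 0.28, and Prdx3 of mitochondria at 0.08. Prdx1, the cytosolic enzyme that Srxn1 repairs and whose promoter is shown above, was at 13610 and 14080 (0.04), and Prdx6, which uses glutathione, at -0.16 with its 3 probes between -0.22 and -0.04.

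Enzymes that remove superoxide and hydrogen peroxide were nearly equal on the arrays. All 5 lay between -0.07 and 0.37 with a median of 0.08. Sod1, the cytosolic dismutase, had 112504 and 117828 (0.05) and mitochondrial Sod2 26921 and 30678 (0.18). Cat, catalase, had 1199 and 1149 (-0.07), and Gpx1, glutathione peroxidase 1, 21420 and 22777 (0.08). Gpx4, which reduces lipid peroxides in membranes, had 30648 and 39858 (0.37). Nqo1, the quinone reductase often used to read NRF2 activity, was dim on both arrays, with 67.6 and 63.4 (-0.10, and -0.89 after normexp as given).

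Of 25 other thioredoxin and peroxide genes, 23 were measured, 1 was higher and 1 lower. Gpx8, a peroxidase of the endoplasmic reticulum, was 13.1-fold higher, from a dim 30.4 in WT to 401 in KO, and its log2 difference of 3.71 became 1.17 after normexp as given. Selenop, which carries selenium, was 2.70-fold lower (6143 and 2293). The stress-induced sestrin gene Sesn2 was at 0.18, and its relatives Sesn1 and Sesn3 at -0.82 and -0.70. Park7, encoding the oxidant sensor DJ-1, was at 0.51.

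**Figure D2:**
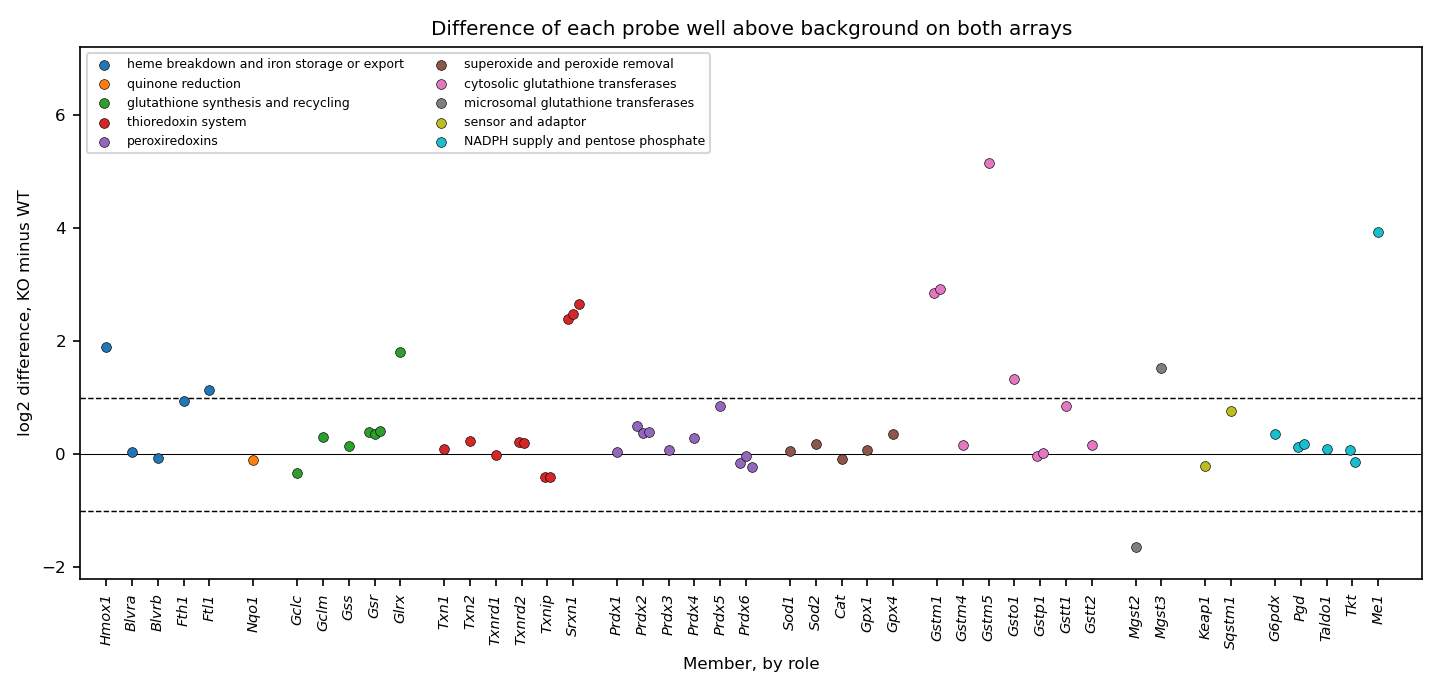
The log2 difference, KO minus WT, of each probe well above background on both arrays, with members ordered by role and 1 point for a probe. Probes of 1 gene lie close together, such as the 3 probes of Srxn1 between 2.39 and 2.66, and dashed lines mark 2-fold.

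Cytosolic glutathione transferases held the largest difference of any member, that of Gstm5. Of 9 members 8 passed the filter on dim probes, 3 were higher, 4 between and 1 had a bound, with a median of 0.87. Gstm5, a mu class enzyme, gave a WT signal of 28.0 and a KO signal of 999, 35.3-fold higher. It ranked as number 6 of the 12475 genes measured on both arrays, counted from the highest difference. Since the WT signal was near the lowest one called well above background (14.0), this fold depends on the background subtraction: the log2 difference of 5.14 became 2.34 after normexp as given and 3.26 with aberrant backgrounds replaced. Gstm1, of the same class, had 354 and 2565, 7.18-fold higher, and its dimmer probe 20.5 and 158 (2.93). Gsto1, the omega class enzyme, had 3161 and 8031, 2.52-fold higher.

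The remaining transferases were closer to equal. Gstt1, a theta class enzyme, had 393 and 716 (0.85), Gstt2 7219 and 8140 (0.16) and Gstm4 368 and 414 (0.16). Gstp1, the pi class enzyme, had 61188 and 60413 (-0.03), and its other probe gave 0.03. Gsta4, an alpha class enzyme that clears the lipid peroxidation product hydroxynonenal, was printed 10 times and was well above background in none of these spots in WT and in all of them in KO. Its spots ran from 2.83 over a median of 3.07 to 5.98 in WT and from 22.2 over 25.8 to 31.7 in KO. The spots of the arrays did not overlap, but they repeat the same probe on single arrays, so they are technical. The bound against the detection limit in WT was at least 1.85-fold higher. Gstm2 was well above background on neither array. Mu class genes are near copies of each other, as are Gstp1 and Gstp2, and a probe of one may read another in part.

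Other transferase genes and their relatives were mostly above 0 as well, though many were dim. Of 21 listed, 14 passed it, and 7 of these were higher and 7 between, with a median of 0.91. Gstm3 had 260 and 1069, 4.07-fold higher, and Gstm7 was read in KO only, at least 2.69-fold higher (6.42 and 38.0, with 0.23 in log2 where aberrant backgrounds were replaced). The theta genes Gstt3 (1812 and 6389, 3.49-fold) and Gstt4 (123 and 323, 2.60-fold, 0.49 in log2 after normexp as given) were higher too. Gsta3 (19.0 and 51.8) and Gsto2 (58.8 and 123) passed 2-fold on dim signals, but after normexp as given their differences were -0.73 and -0.23. The median of this list was 0.21 with no filter on dim probes and 0.23 with aberrant backgrounds replaced. Its size thus depends on how dim spots are treated. Only normexp as given put it below 0, at -0.23. Gstz1, which also works in tyrosine breakdown, was at -0.32 and Gstcd at -0.35, while Gsta1, Gsta2, Gstm6, Hpgds and Gdap1 were well above background on neither array.

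Genes of the mu cluster on chromosome 3 are neighbours, and their differences were uneven along it. In RefSeq order Gstm5 (5.14), Gstm7 (a bound of 1.43), Gstm6 (well above background on neither array) and Gstm3 (2.02) are followed, past Gstm2, also read on neither, by Gstm1 (2.84) and Gstm4 (0.16). On the side of Gstm5 the next genes were Eps8l3, with a bound of 0.42, and Csf1, the macrophage growth factor, with 47.2 in WT and 305 in KO (2.68, or 0.81 after normexp as given). On the side of Gstm4 the next gene with a probe was Ampd2 (0.02). The theta cluster on chromosome 10 ran from Gstt3 (1.81) over Gstt1 (0.85) and Gstt4 (1.38) to Gstt2 (0.16), and its flanking genes Ddt (0.34) and Mif (-0.04) lay between. In both clusters genes at least 2-fold higher thus stood beside ones near 0.

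The neighbours of other higher members differed in size and sign, several of them on dim signals. Gsto1 stands beside Gsto2 (1.05), and Glrx between Ell2 (93.8 and 422, 2.16, or 0.94 after normexp as given) and Rhobtb3, which had a bound of -1.61 (-0.62 with aberrant backgrounds replaced). Hmox1 stands between Tom1 (0.55) and Mcm5 (-0.74), and Srxn1 between Scrt2 (0.70) and Tcf15, with a bound of 1.72 (0.46 with aberrant backgrounds replaced). Ftl1 stands between Gys1 (0.92) and Bax (-0.12).

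**Figure D3:**
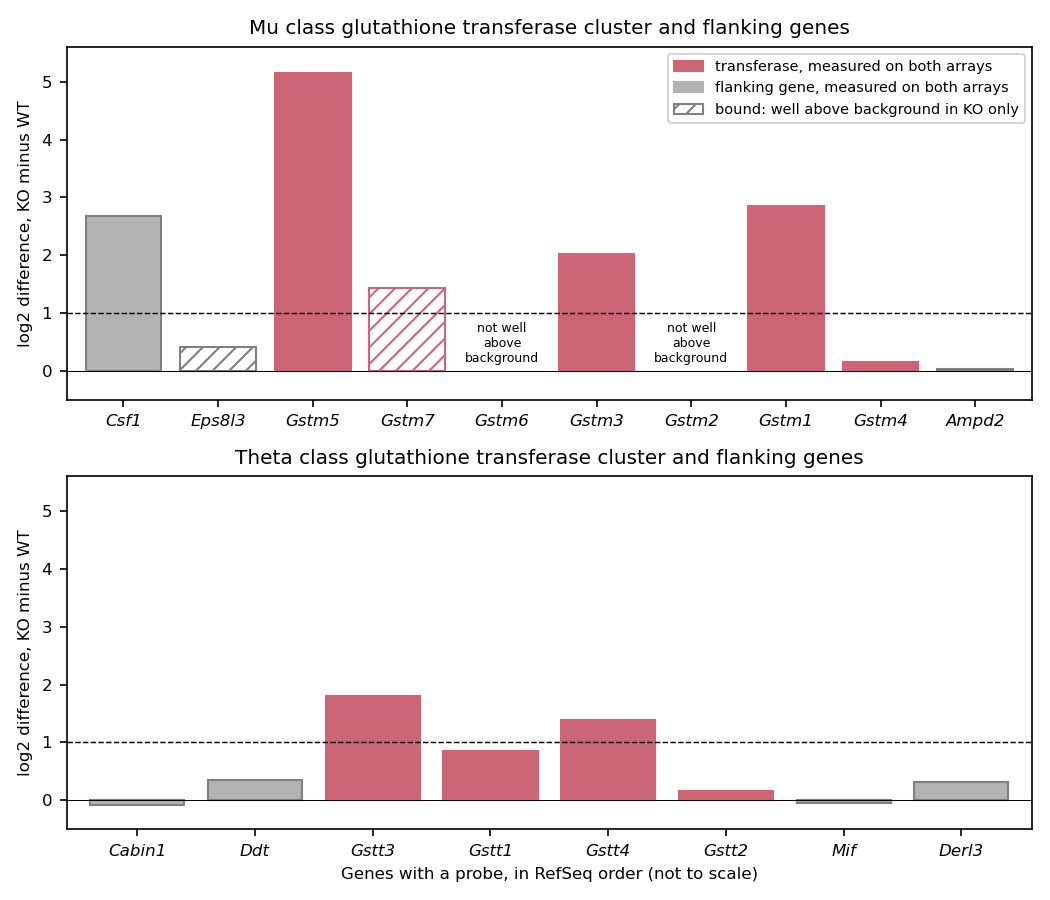
The log2 difference, KO minus WT, of the mu class (top) and theta class (bottom) glutathione transferase genes and the genes next to them, in RefSeq order and not to scale. Hatched bars are bounds of genes read in KO only. Gstm5 (5.14) is the tallest bar, while Gstm4 (0.16) and Gstt2 (0.16) at the cluster ends are near 0.

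The microsomal transferases, membrane enzymes of which some also make leukotriene C4, went in opposite directions. Mgst2 was bright, at 35881 in WT and 11640 in KO, 3.11-fold lower, the only member at least 2-fold lower. Mgst3 had 359 and 1047, 2.89-fold higher. Mgst1 was not well above background by either of its 2 probes. Of their relatives in the leukotriene pathway, Alox5ap, the protein that presents arachidonic acid to 5-lipoxygenase, had 444 and 1785, 3.99-fold higher, and Ltc4s, leukotriene C4 synthase, was dim, with 27.7 and 16.9 (-0.73). The promoter window of Mgst2 held the same TGANTCA letters as those of the higher genes shown above.

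NADPH supply was level except for Me1. G6pdx, the first enzyme of the pentose phosphate pathway, had 8252 and 10660 (0.36), Pgd 8321 and 9575 (0.19), Taldo1 45429 and 48990 (0.10) and Tkt, transketolase, 85415 and 90821 (0.08). All 4 pentose phosphate genes were above 0 and at most 1.28-fold, although Tkt was just below 0 after median centring or as a mean over its probes, and its dim second probe gave -0.13. Me1, cytosolic malic enzyme, which makes NADPH from malate, had 43.3 in WT and 669 in KO, 15.3-fold higher on 1 probe. The WT signal was dim, and the log2 difference of 3.94 was 1.77 after normexp as given and 2.60 with aberrant backgrounds replaced. Its mitochondrial relative Me2 was at 0.15, and the isocitrate dehydrogenases that also make NADPH at 0.37 (Idh1) and -0.63 (Idh2).

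Of 20 other genes linked to NRF2 or NADPH, 17 were measured, 2 were higher and 1 lower, 14 lay between, and the median was 0.21. Akr1b8, an aldo-keto reductase, was 3.08-fold higher (1086 and 3377), and Pir, pirin, was read in KO only, at least 3.26-fold higher (4.97 and 46.0), but its log2 bound was 0.50 with aberrant backgrounds replaced. Ephx1, microsomal epoxide hydrolase, was 3.92-fold lower (829 and 213), with its 2 probes at -1.97 and -1.85. Osgin1 (0.74), Nqo2 (0.84) and Trim16 (0.51) lay between. Some genes known as NRF2 targets were picked here with their values known. Of these, Gstm1, Srxn1, Hmox1, Me1, Ftl1 and Akr1b8 were at least 2-fold higher and Ephx1 alone at least 2-fold lower. Nqo1, Gclc, Gclm, Gsr, Txnrd1, Txn1, Prdx1 and G6pdx lay between. The set is not complete and gives no share of targets: it leaves out Gstm3, Fth1 and Osgin1, above 0, and Aldh1a1, below it. Of the genes linked to NRF2 or NADPH, 16 were measured on both arrays, with 12 above 0 and 4 below it. Over all 134 genes of the pathway lists, 117 were measured, of which 15 (12.8%) were higher and 7 (5.98%) lower, close to the 10.6% and 5.03% of all genes.

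**Figure D4:**
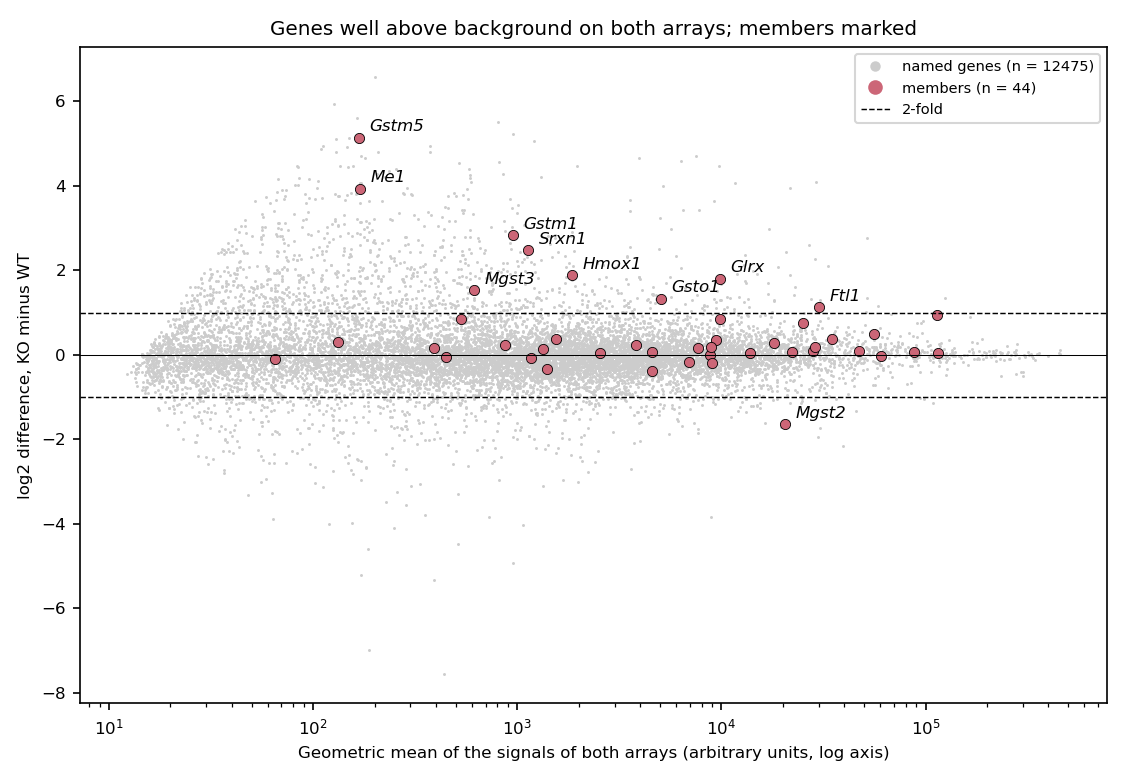
The log2 difference, KO minus WT, against the geometric mean of both signals (log axis) for 12475 named genes measured on both arrays, with the 44 members marked and those at least 2-fold apart named. Most members lie within the dashed 2-fold lines, and Gstm5 (5.14) and Me1 (3.94) lie among dim genes, where the spread is widest.

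The T cell markers were present on both arrays. Of 9, 8 lay between the limits and Cd2 was 2.31-fold lower, Cd3e was at -0.20 and Thy1 at -0.16, and Cd4 was at 443 and 279 (-0.68). Markers of other cells were higher in KO in part, and their part in the results above was not tested. Fewer cells of a type and less RNA per cell cannot be told apart in such samples. For macrophages and monocytes, which express Hmox1 and Fth1 strongly, the signals of 13 markers summed to 434 in WT and 764 in KO and 3 were higher. Adgre1, which encodes F4/80, was read in KO only and was at least 5.08-fold higher, Cd14 was 7.25-fold higher, and the bound of Fcgr3 was 9.50-fold. After normexp as given Cd14 was at 0.67 and Fcgr3 at 0.16 in log2, and with aberrant backgrounds replaced Adgre1 was at 0.66. C1qa, C1qc, Fcgr1, Vsig4 and Itgam were not well above background on either array, Lyz2 not in KO, and Csf1r (-0.39) and Mpeg1 (-0.64) were below 0. For red cell precursors 7 markers summed to 450 and 1590 and 3 were higher, among them Epor (194 and 979, 5.01-fold) and Hba-a1 (101 and 280), while Alas2 was not well above background.

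Natural killer markers summed to 1256 and 7386, with 4 of 7 higher. Most of the KO sum came from Fcer1g (669 and 5087, 7.54-fold) and Tyrobp (253 and 1229, 4.82-fold), and Klrb1c and Klrk1 were higher too. Klre1 (0.69), Klra8 (0.40) and Ncr1, read in KO only with a bound of 0.62, did not reach 2-fold. The CD8 T cell marker Cd8a was at 312 and 3213 (10.2-fold higher). Mast cell and basophil markers summed to 284 and 753 with 3 of 8 higher, dendritic cell markers to 173 and 791 with 1 of 5 higher, which was Itgax (20.0 and 623), and B cell markers to 934 and 1688 with 2 of 6 higher. Many of these markers were dim, and the log2 difference of Itgax, 4.94, became 1.79 after normexp as given. Under normexp as given, and then with aberrant backgrounds replaced, the markers at least 2-fold higher numbered 0 and 2 for macrophages, 1 and 1 for red cell precursors, 3 and 3 for natural killer cells, 1 and 2 for mast cells and basophils and 0 and 0 for B cells. Of 7 neutrophil markers 6 were not well above background on either array. Gstm1, Srxn1, Hmox1 and Glrx were thus read in samples where Cd8a and 4 of 7 natural killer markers were also higher in KO.

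The members at least 2-fold apart kept their side of the limit under all 11 alternatives that gave values, and only the dim ones changed much in size. Alternatives that only filtered genes left these values as they were. Keeping flagged spots, the authors' values and median centring shifted them all by nearly the same small amount. Such settings say little about single genes. Gstm1 ranged from 2.49 to 2.94, Srxn1 from 2.24 to 2.56, Hmox1 from 1.81 to 1.96, Glrx from 1.73 to 1.99 and Mgst2 from -1.71 to -1.37. Gstm5 ranged from 2.34 to 5.27 and Me1 from 1.77 to 4.06. Fth1 passed 2-fold under 2 of the 11, and Prdx5 and Sqstm1 under 1 each, so these 3 lie close to the limit.

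**Figure D5:**
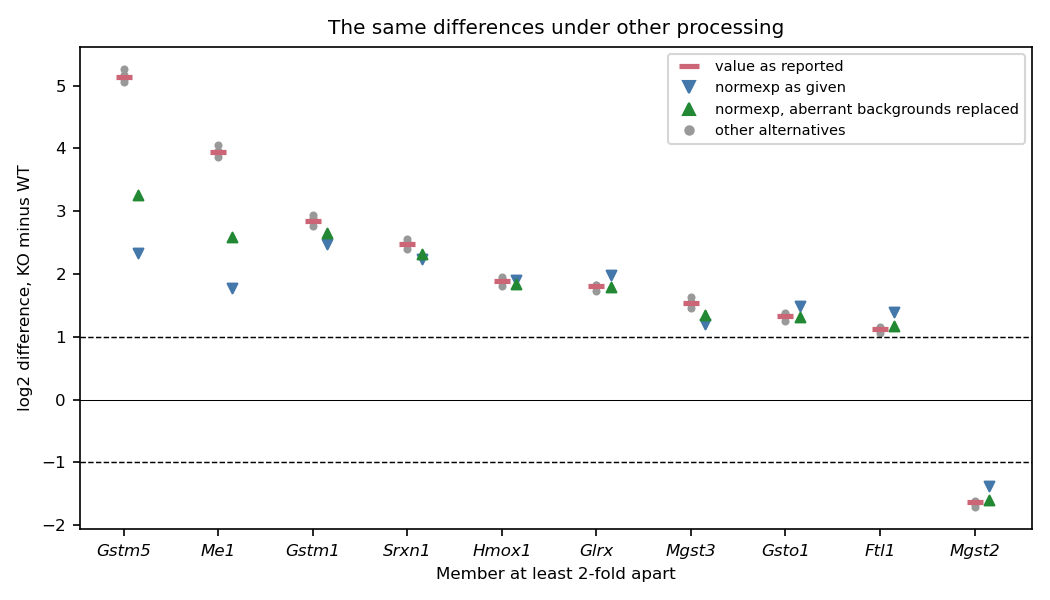
The log2 difference, KO minus WT, of the 10 members at least 2-fold apart, as reported (red bar) and under the alternatives that give values, with both normexp background corrections as triangles and dashed lines at 2-fold. Every point stays outside the lines, and normexp lowers Gstm5 to 2.34 and Me1 to 1.77.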

How the data were processed

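Total RNA was labelled with Cy3 and hybridised to 2 Agilent mouse arrays, per the labels' protocols. Per the file headers, signals were extracted with Feature Extraction 10.7.3.1 (10.7 per the submitters' processing notes) on an mm9 design. The deposited intensity is the processed signal, background-subtracted and detrended per the file headers and not scaled between arrays. The deposited flags (other values of 0 or 1) mark outliers and spots well above background. The authors' log2 values equal log2 of that signal minus a constant per array, within 0.01 for 100% of probes. The column medians were -3.97 and -3.90.

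Flagged spots (115 and 103, none of a member) were left out, spots of a probe averaged, and arrays scaled to the 75th percentile. A gene took the brightest of its probes that either array read well above background. For a bound, the dim side was the higher of the probe's own value and the detection limit of that array (the lowest signal flagged well above background). Names came from RefSeq (GRCm38.p6), for 27043 of 41164 probes. Well above background were 59.5% and 63.5% of spots. Precision is limited by the number of arrays.

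The genes, lists, motifs and naming rule were chosen with earlier results of these data known. All members were accounted for, and pathway genes were named where at least 2-fold apart or as relatives of members. Normexp (limma 3.58.1, R 4.3.3, offset 50) used median spot signals. Python 3.11.15 was used otherwise. The procedure was tested on simulated data. Protein identity, planned for the mu class, was not analysed here.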

Additional observations from a re-analysis of the deposited data

How the results depend on the processing

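No alternative changed the side of 0 of a member at least 2-fold apart. The count of higher members was 9 to 12 and of lower members 1 under the 11 alternatives in background correction, scaling, source of values, probe choice, filters and flags, and the members' median was 0.13 to 0.38. At a 1.5-fold size rule 14 members were higher and 1 lower, and at 4-fold 4 higher and 0 lower. Single member values moved by less than 0.196, the technical SD over all probes, in 459 of 499 recomputed values. This SD is wider than the 0.0806 found at signals of 100 or more, where most members lay. Several alternatives also left member values unchanged or shifted them all by nearly the same small amount, so many of the 499 could hardly move further. The all-gene split of 1458 higher and 694 lower became 601 and 1682 after normexp as given, whose WT fit (residual background -140.5) held 6 spots with aberrant local background, and 760 and 369 with these replaced (-12.9). Of the members under 2-fold apart, 14 changed sign under at least 1 alternative, 6 of them under normexp as given (such as Gclm, at -0.35). Among the other genes examined singly (pathway genes, called markers and neighbours), normexp as given changed the sign of 27 under 2-fold and of 5 past it: Gsta3 (-0.73), Gsto2 (-0.23), Fcer1a (-0.51), Klrk1 (-0.078) and Cd22 (-0.32). No paired analysis was possible because there was 1 array a group, and no replicate could be left out.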

Other observations

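Genes that produce superoxide were uneven. Of 11 listed, 8 passed the filter on dim probes. Ncf1, the p47-phox subunit that assembles the phagocyte oxidase, was at 709 in WT and 178 in KO, 4.02-fold lower, and both of its probes gave this (-2.01 and -1.98). Ncf4, p40-phox, was at 0.52, Cyba, p22-phox, at -0.13 and Rac2 at -0.03. Cybb, the catalytic subunit, was not well above background in WT and had 14.1 in KO, with no usable bound. Nox4 was read in WT only, at least 2.18-fold lower in KO, but its log2 bound was -0.43 with aberrant backgrounds replaced.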
